A study of Mus musculus with 19 samples.

Results

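Dbp, Tef, Hlf and Nfil3 are 4 transcription factor genes, of 20018 named on these arrays, and are read by 5 of the 55681 probes that are not controls. They were chosen by the RefSeq accession each probe carries, and as a set because of how they differed between treated and control mice, so every difference from control below is a description and supports nothing by itself. Dbp had 2 probes (A_55_P2032081 and A_55_P2032079), and Tef (A_55_P1979893), Hlf (A_55_P2009752) and Nfil3 (A_55_P2035320) had 1 each. All 5 were well above background in liver and in the reference on 19 of 19 arrays, with 0 saturated spots.

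Male mice of transgenic strain 40.6, 19 in all and aged 10 weeks, were studied 3 days after dibenz[a,h]anthracene, which is a polycyclic aromatic hydrocarbon that liver enzymes turn into DNA-binding products. Doses were 0 (5 mice), 6.25 (5), 12.5 (4) and 25 mg/kg (5), with 1 array per animal. All groups, controls included, carried the strain's transgene. Each array compared Cy5-labelled RNA of part of a liver with Cy3-labelled RNA pooled from 11 mouse cell lines, with no dye swap. The vehicle and the hour at which livers were taken are not given in the sources used here.

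Dbp, Tef and Hlf make up the PAR bZIP family, activators with a basic leucine zipper that bind DNA sites called D-boxes. Nfil3, also called E4BP4, carries a similar zipper, binds the same sites and represses. In liver the family is driven by the circadian clock, in which BMAL1 (encoded by Arntl) and CLOCK bind E-boxes and switch on the Per and Cry genes, Nr1d1, Nr1d2 and Dbp. Dbp in particular swings widely over the day, Nfil3 peaks at the opposite phase, and their shared targets include enzymes that handle drugs, heme and bile acids.

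The 250 bases before each start site are shown, since these genes differed together or in opposition and such stretches are where clock factors are known to act. They come from RefSeq on mouse build GRCm38.p6, which held 5 start sites for the 4 genes, all read 5′ to 3′ on the gene's own strand. Capitals mark matches, on either strand, to an E-box (CACGTG), an E-prime box (CACGTT), a D-box (TTATGTAA or TTACGTAA), the core of a ROR and REV-ERB element (TAGGTCA) or a cAMP response element (TGACGTCA). Matches did not overlap.

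Dbp, chr7:45704997-45705246, plus strand: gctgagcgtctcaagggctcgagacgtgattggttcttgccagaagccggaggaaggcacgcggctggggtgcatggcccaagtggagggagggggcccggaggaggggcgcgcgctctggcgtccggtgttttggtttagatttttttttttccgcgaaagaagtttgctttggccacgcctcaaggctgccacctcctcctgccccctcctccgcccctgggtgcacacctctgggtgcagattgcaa

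Tef, first start, chr15:81802423-81802672, plus strand: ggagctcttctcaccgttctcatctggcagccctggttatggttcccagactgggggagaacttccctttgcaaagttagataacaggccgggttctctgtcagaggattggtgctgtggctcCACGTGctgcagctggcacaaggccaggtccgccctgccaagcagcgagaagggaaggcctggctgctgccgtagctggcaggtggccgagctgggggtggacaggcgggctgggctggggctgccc

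Tef, second start, chr15:81811164-81811413, plus strand: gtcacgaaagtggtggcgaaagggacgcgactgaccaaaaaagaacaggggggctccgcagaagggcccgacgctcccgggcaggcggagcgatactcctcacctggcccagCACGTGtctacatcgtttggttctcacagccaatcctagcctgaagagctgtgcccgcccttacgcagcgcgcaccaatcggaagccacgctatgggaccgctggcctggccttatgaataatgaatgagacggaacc

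Hlf, chr11:90390918-90391167, minus strand: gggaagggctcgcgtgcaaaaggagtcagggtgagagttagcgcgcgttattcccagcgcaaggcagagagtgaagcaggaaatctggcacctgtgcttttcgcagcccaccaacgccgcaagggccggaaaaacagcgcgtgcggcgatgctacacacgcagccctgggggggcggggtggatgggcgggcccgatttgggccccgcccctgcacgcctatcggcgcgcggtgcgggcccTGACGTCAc

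Nfil3, chr13:52981040-52981289, minus strand: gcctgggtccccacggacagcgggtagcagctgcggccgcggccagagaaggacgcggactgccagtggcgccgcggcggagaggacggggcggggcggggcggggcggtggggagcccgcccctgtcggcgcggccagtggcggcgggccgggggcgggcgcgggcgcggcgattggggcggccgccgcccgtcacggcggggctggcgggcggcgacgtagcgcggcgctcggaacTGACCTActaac

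Tef held CACGTG upstream of both its starts, beginning 127 bases before the first and 138 bases before the second. Hlf held TGACGTCA beginning 9 bases before its start, and Nfil3 held TAGGTCA on the opposite strand beginning 12 bases before its own. The window of Dbp held none of these letters, and sequence farther from the starts was not searched. Among 32851 RefSeq windows of 300 bases (250 before and 50 after a start), CACGTG was in 7.15%, CACGTT in 4.68%, TAGGTCA in 2.61% and TGACGTCA in 1.79%. TTATGTAA was in 0.938% and TTACGTAA in 0.119%. A match describes the letters alone, and these arrays did not measure binding.

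Between 35.5 and 56.7% of an array's spots were well above background in the liver channel, and 29415 probes were kept for testing, the brightest of each named gene standing for 13812 genes. Arrays lay on 3 slides, and every slide held all 4 doses. In limma across all kept probes, the share that differed from control at an adjusted p under 0.05 was 0.0578% at 25 mg/kg, 0% at 12.5 and 0% at 6.25. With slide as a fixed block it was 0.809%, 0.0068% and 0%. Hepatocyte markers (albumin, transthyretin and others) were all kept, 8 of 8, and their mean log2 ratio of liver over reference was 6.10 to 7.93 over the 19 animals, which fits the labelled tissue. In whole liver, fewer cells of a type and less RNA per cell cannot be told apart.

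Levels below are log2 ratios of liver over reference, so 0 means an equal signal and 1 a doubling. Dbp was lowest in controls, where its ratio was -2.51, -2.21, -1.84, -1.35 and -1.08. At 6.25 mg/kg it was -0.82, 0.20, 1.15, 1.31 and 2.70, and at 12.5 mg/kg 0.93, 1.28, 2.24 and 2.42. The 5 animals at 25 mg/kg had 0.53, 1.39, 2.41, 2.50 and 2.70. All 14 treated animals lay above all 5 controls, with a gap of 0.26 between the highest control and the lowest treated animal. That lowest animal, 6.25 mg/kg replicate 1, shared its dose with replicate 5, which at 2.70 equalled the highest animal at 25 mg/kg. How many of all kept genes part treated animals from controls in this way was not counted. The counts of animals for Dbp, and for Tef, Hlf and Nfil3 below, therefore have no background to be read against.

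The second Dbp probe read -2.56 to -1.20 in controls, -0.85 to 2.88 at 6.25 mg/kg, 0.90 to 2.37 at 12.5 mg/kg and 1.0 to 2.73 at 25 mg/kg. The 2 probes differed by a median of 0.11 and by less than 0.5 on 19 of 19 arrays. Their widest disagreement, 0.48, was in 25 mg/kg replicate 4, where they read 0.53 and 1.0. Group means were -1.80 ± 0.59 and -1.80 ± 0.55 in controls (SD, n = 5), and 1.91 ± 0.92 and 1.92 ± 0.71 at 25 mg/kg (n = 5).

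Tef, thyrotroph embryonic factor, was first known from the pituitary. Its ratio was 0.34, 0.68, -0.13, 0.09 and -0.48 in controls. It was 2.99, 1.31, 0.70, 0.43 and 0.92 at 6.25 mg/kg, and 2.10, 1.26, 0.92 and 1.57 at 12.5 mg/kg. Those at 25 mg/kg had 2.25, 1.44, 1.70, 1.83 and 1.70. Of 14 treated animals 13 lay above every control, and the exception was again 6.25 mg/kg replicate 1 at 0.43. Replicate 5 of that dose, at 2.99, was the highest of all 19 animals. The spread was smallest at 25 mg/kg (1.78 ± 0.30, SD, n = 5) and widest at 6.25 mg/kg (1.27 ± 1.01, n = 5).

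Hlf, first known from a gene fusion in leukemia, stood well above the reference in every animal. Its ratio was 1.63, 1.80, 2.01, 2.05 and 2.34 in controls and 1.71, 2.42, 2.47, 2.50 and 3.14 at 6.25 mg/kg. It was 1.86, 1.98, 2.42 and 2.52 at 12.5 mg/kg, and 2.24, 2.29, 2.53, 2.72 and 2.90 at 25 mg/kg. Groups overlapped, with 9 of 14 treated animals above every control. Its liver signal was the dimmest of the 5 probes, 292 to 1120 in controls and 616 to 1300 at 25 mg/kg (median pixel brightness), against 659 to 3220 and 4450 to 43600 for Dbp.

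Nfil3, the repressor, ran the other way. Its ratio was 0.98, 1.46, 1.54, 1.68 and 2.05 in controls, and 0.09, 0.23, 0.95, 1.06 and 1.16 at 6.25 mg/kg. It was -0.05, 0.08, 0.33 and 0.50 at 12.5 mg/kg, and -0.43, -0.22, -0.07, 0.53 and 0.66 at 25 mg/kg. Of 14 treated animals 12 lay below every control, and the other 2, at 1.06 and 1.16, were 6.25 mg/kg replicates 5 and 1. All animals at 12.5 and 25 mg/kg were below the lowest control.

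**Figure D1:**
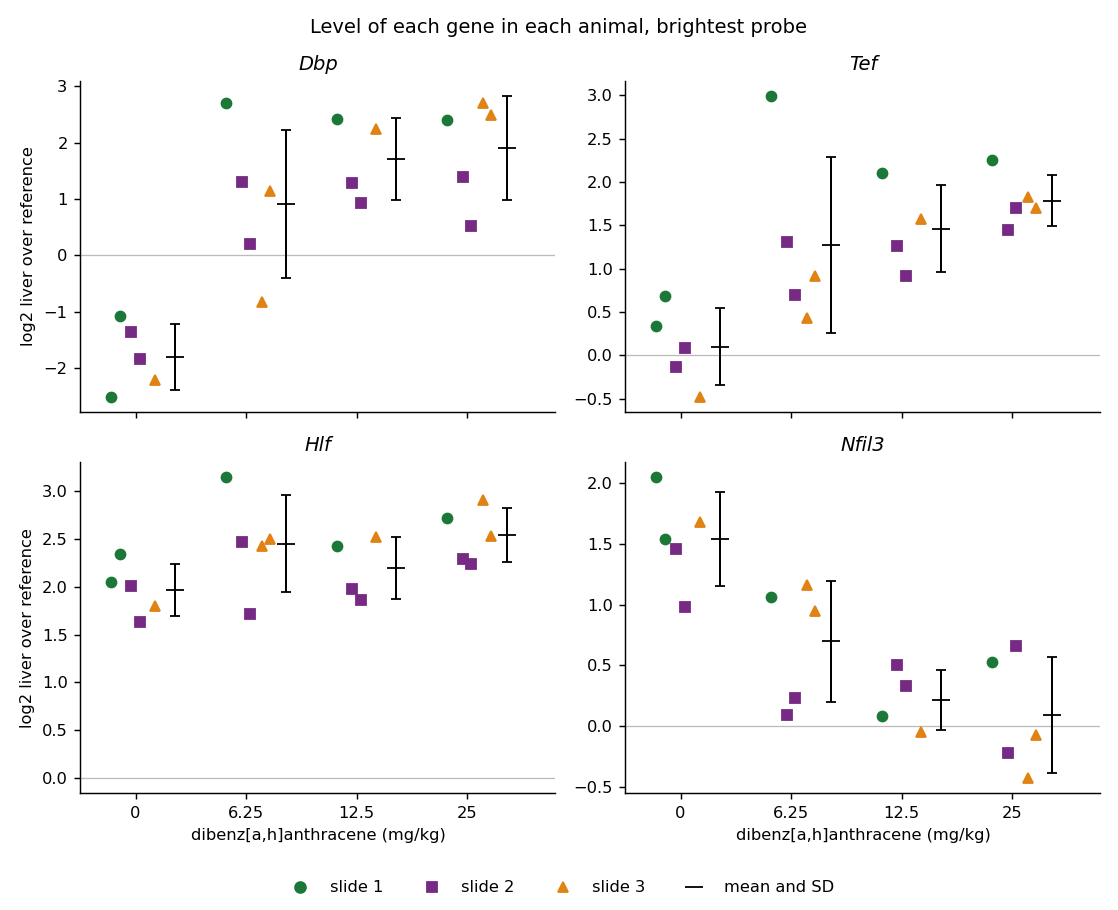
Log2 ratio of liver over reference for the brightest probe of Dbp, Tef, Hlf and Nfil3 (vertical axes, a scale for each gene) by dose in mg/kg (horizontal axes), 1 point per animal with its slide, and the group mean with SD in black. For Dbp all 14 treated animals lie above the 5 controls, for Nfil3 12 of 14 lie below them, and the groups of Hlf overlap. How many of all kept genes separate in this way was not counted.

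Expressed as differences from control, Dbp was 6.53-fold higher at 6.25 mg/kg (log2 2.71 ± 0.54, SE), 11.4-fold higher at 12.5 mg/kg (3.52 ± 0.57) and 13.1-fold higher at 25 mg/kg (3.71 ± 0.54). Tef was 2.25-fold, 2.57-fold and 3.22-fold higher (1.17 ± 0.36, 1.36 ± 0.38 and 1.69 ± 0.36). Nfil3 was lower by 1.80-fold, 2.51-fold and 2.73-fold (-0.85 ± 0.25, -1.33 ± 0.26 and -1.45 ± 0.25). Hlf differed least, at 0.48 ± 0.21, 0.23 ± 0.23 and 0.57 ± 0.21. Sorted among 13812 genes from the highest difference, Dbp stood at place 1, 1 and 2 at the 3 doses, Tef at 10, 9 and 9, and Hlf at 186, 1280 and 197. Nfil3 stood at place 30, 14 and 15 from the lowest.

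At 25 mg/kg 3 of the 5 probes passed limma's test, both of Dbp and that of Nfil3, where 0.0578% of all probes passed. With slide as a block Tef passed too, making 4 (0.809% of all probes). At 12.5 mg/kg 0 passed, and the 2 Dbp probes with the block. At 6.25 mg/kg 0 passed in either fit, where 1639 probes had an unadjusted p under 0.05 in limma without the block and 3447 with it. These counts come from the contrasts that chose the genes.

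Single arrays moved the counts. None of the 5 probes passed at 25 mg/kg without 25 mg/kg replicate 1 (Dbp adjusted p = 0.0605 in limma) or without control replicate 4 (0.0568), and 4 passed without 6.25 mg/kg replicate 5, when Tef was added. Nfil3 also missed the threshold without control replicate 1, 2 or 5, 25 mg/kg replicate 2 or 3, 6.25 mg/kg replicate 2 or 12.5 mg/kg replicate 4. At 12.5 mg/kg both Dbp probes passed without 6.25 mg/kg replicate 1 or 5 or 25 mg/kg replicate 4. With the block, Dbp and Tef passed at 25 mg/kg in 19 of 19 such fits. Nfil3 then missed only without control replicate 1 (adjusted p = 0.0657 in limma), and Hlf passed without control replicate 2 or 6.25 mg/kg replicate 4 or 5. At 12.5 mg/kg with the block, the Dbp probes missed without control replicate 1, 4 or 5, 12.5 mg/kg replicate 1, 2 or 4, or 25 mg/kg replicate 3. Tef was added there without 6.25 mg/kg replicate 1 or 5 or control replicate 3. At 6.25 mg/kg with the block, 3 probes passed without replicate 1 and 1 without replicate 2.

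Taking the channels apart showed which RNA carried the differences. In liver alone, quantile normalised between arrays, the log2 difference at 25 mg/kg was 3.70 for Dbp, 3.72 for its second probe, 1.80 for Tef, 0.57 for Hlf and -1.33 for Nfil3. In the reference it was -0.03, -0.04, 0.09, 0.12 and 0.14. The reference signal of Dbp ranged over only 0.19 across the 19 arrays while its liver signal ranged over 5.28. The reference was less even for Tef and Nfil3, ranging over 0.70 for each, and was lowest on slide 1. For Hlf it ranged over 0.63 against a liver range of 1.01. The reference's slide means were 12.90, 13.39 and 13.47 for Tef and 10.89, 11.46 and 11.53 for Nfil3 on slides 1, 2 and 3. The overlaps given above are of ratios. In liver alone the lowest treated animal for Tef, 6.25 mg/kg replicate 1 at 12.87, lay above the highest control (12.31). For Nfil3 the lowest control was 11.18 in liver alone, and 6.25 mg/kg replicates 1 and 2 lay above it (11.47 and 11.24).

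**Figure D2:**
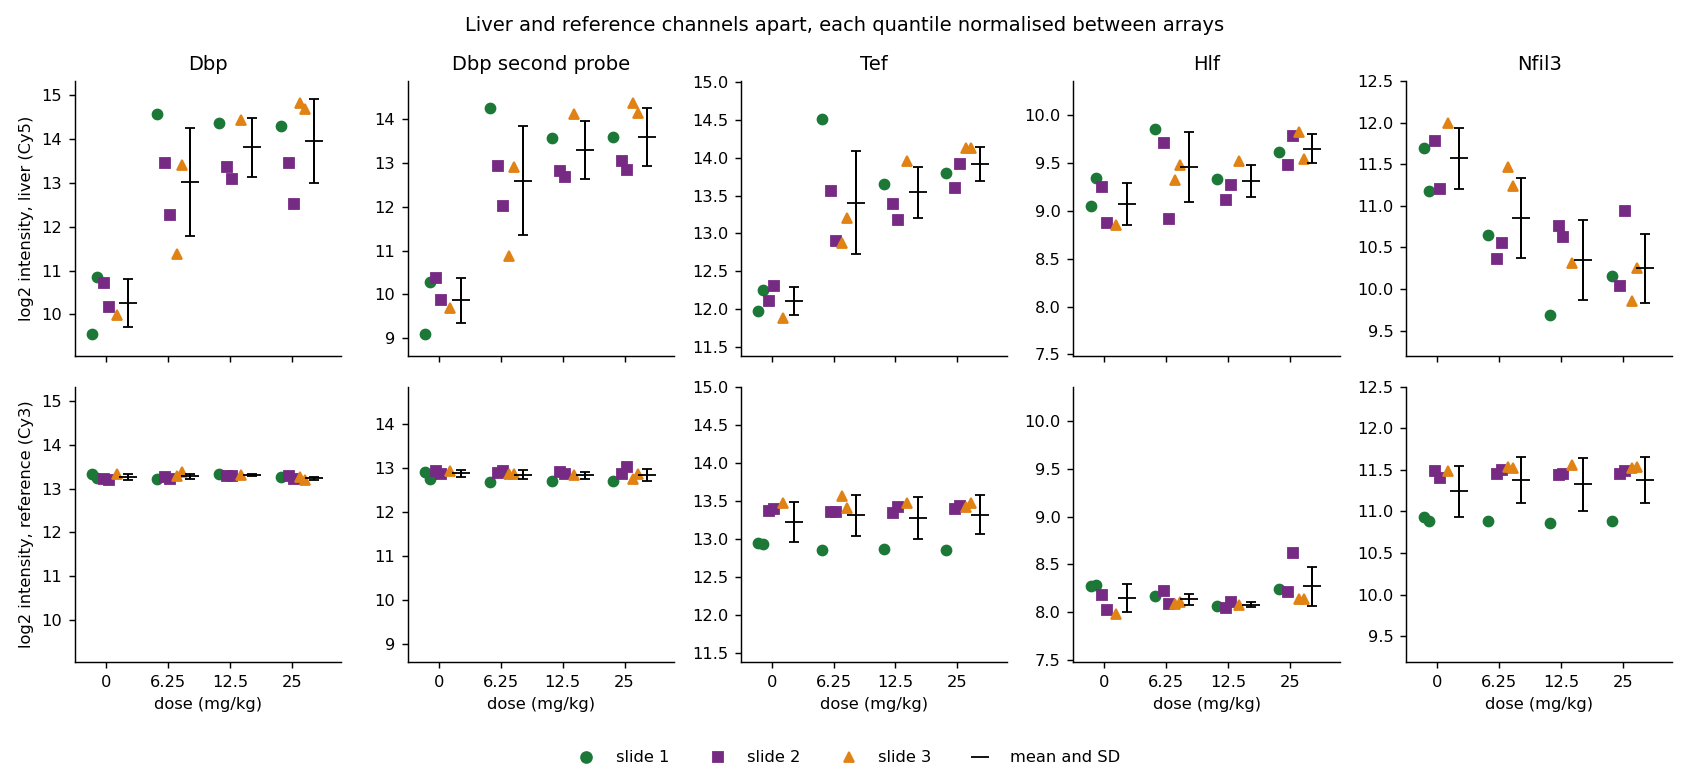
Log2 intensity of the liver channel (upper panels) and the reference channel (lower panels) for the 5 probes by dose in mg/kg, with both panels of a probe on the same scale, 1 point per animal and the group mean with SD. For Dbp the reference ranges over 0.19 and the liver over 5.28, and for Tef and Nfil3 the reference is lowest on slide 1.

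Slide accounted for little of the variance of Dbp and for as much of Hlf's as dose did. Dose group held 76.3% of the variance of Dbp over the 19 animals and slide 2.68%. The shares were 57.2% and 14% for Tef, 70% and 11.7% for Nfil3, and 33.7% and 34.5% for Hlf. Within slides 1, 2 and 3 the difference at 25 mg/kg was 4.21, 2.56 and 4.81 for Dbp, 1.75, 1.59 and 2.24 for Tef, and 0.53, 0.45 and 0.91 for Hlf. For Nfil3 it was -1.27, -1.0 and -1.94. The sign was the same on all 3 slides at each dose for each of the 4 genes, and only slide 2 held 2 animals on both sides.

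The size of the difference from control was hardest to place at 6.25 mg/kg. There Dbp was higher by 4.50 on slide 1, which held replicate 5 alone, and by 2.35 and 2.38 on slides 2 and 3. Tef differed by 2.48, 1.02 and 1.15 on the same slides, and Hlf by 0.95, 0.27 and 0.66. Nfil3 did not share that order, at -0.74, -1.06 and -0.63. The animal with the highest Dbp, Tef and Hlf of its dose thus had a Nfil3 ratio (1.06) near the top of its group. In the liver channel alone its Nfil3 was in the middle, at 10.65 against 10.36, 10.55, 11.24 and 11.47 in the others of its dose. Its reference signal was 10.88, against 11.45 to 11.53 in those others.

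Comparing treated groups with each other leaves out the controls and asks whether the genes followed the dose. Between 6.25 and 25 mg/kg Dbp differed by 1.0 ± 0.54 (SE, 95% interval -0.13 to 2.12), Tef by 0.52 ± 0.36 (-0.24 to 1.28) and Hlf by 0.09 ± 0.21 (-0.36 to 0.53). Nfil3 was lower by 0.60 on average, with an interval from -1.12 to -0.08. No member passed in limma (adjusted p = 0.999 to 1 over the dose pairs without the block and 0.464 to 0.979 with it), where 0% of all probes passed and 632 had an unadjusted p under 0.05. Without the block the intervals hold both no difference and a further doubling for Dbp and Tef. With slide as a block the interval was -0.01 to 2.01 for Dbp and 0.03 to 1.0 for Tef.

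Between 12.5 and 25 mg/kg the differences were smaller than their errors for Dbp (0.19, interval -1.0 to 1.38), Tef (0.32 ± 0.38, SE) and Nfil3 (-0.12). For Hlf it was 0.34 ± 0.23 (SE). Between 6.25 and 12.5 mg/kg they were 0.81 for Dbp (-0.39 to 2.00), 0.19 for Tef, -0.25 for Hlf and -0.48 for Nfil3. In limma 0% of probes passed in each, with 1171 and 1296 at an unadjusted p under 0.05, and with the block 0% and 0.0034%. Single slides turned several of these signs. From 6.25 to 25 mg/kg the difference on slide 1 was -0.29 for Dbp, -0.74 for Tef and -0.42 for Hlf, and on slide 2 it was 0.06 for Nfil3.

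**Figure D3:**
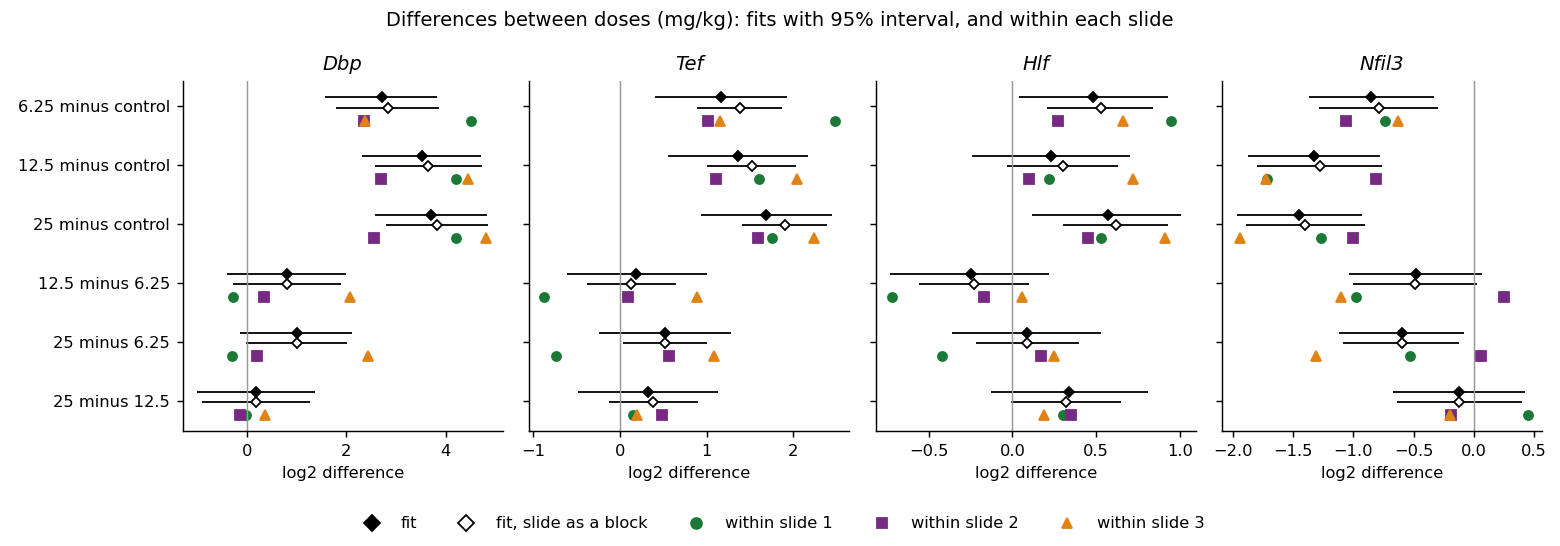
Log2 difference between doses (horizontal axes, a scale for each gene) for the 6 dose pairs named on the left, as fitted with a 95% interval without (filled) and with (open) slide as a block, and within each slide (coloured). Against control the 3 slides share a sign for each gene, while from 6.25 to 25 mg/kg they lie on both sides of 0, as for Dbp with -0.29 on slide 1.

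The log2 ratio of Dbp minus that of Nfil3 was taken in each animal and set to 0 at the control mean. It ranged from -1.22 to 0.72 in controls (0 ± 0.85, SD, n = 5), from 1.36 to 4.98 at 6.25 mg/kg (3.55 ± 1.41, n = 5), from 3.95 to 5.68 at 12.5 mg/kg (4.85 ± 0.94, n = 4) and from 3.21 to 6.48 at 25 mg/kg (5.16 ± 1.24, n = 5). No treated animal overlapped the controls, and the 3 treated groups overlapped each other. Since both genes were chosen for their difference from control, this is a description too. It covers RNA alone and leaves out Tef and Hlf, and the proteins were not measured.

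Whether the genes also moved together among animals of the same dose was tested on what was left after dose group and slide were taken out. The residuals of Dbp ran from -1.75 (6.25 mg/kg replicate 1) to 1.14 (6.25 mg/kg replicate 5), and those of Tef from -0.60 to 0.89 in the same 2 animals. Hlf ran from -0.48 (6.25 mg/kg replicate 4) to 0.37 (6.25 mg/kg replicate 5), and Nfil3 from -0.52 to 0.69 (25 mg/kg replicates 1 and 4). The 6 pairs of genes were tested by permutation with 100000 resamples, two-sided, and adjusted by Benjamini-Hochberg over the 6.

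The 3 activators varied together. Dbp and Tef had r = 0.78 over 19 animals (permutation p = 0.00016, adjusted 0.00081) and rho = 0.84 (permutation p = 5e-05, adjusted 3e-04), with both on the same side of their expectation in 14 of 19. Tef and Hlf had r = 0.75 (permutation p = 0.00027, adjusted 0.00081) and rho = 0.80 (permutation p = 0.00015, adjusted 0.00045), with 14 of 19 on the same side. Dbp and Hlf had r = 0.67 (permutation p = 0.00178, adjusted 0.00356) and rho = 0.74 (permutation p = 0.00065, adjusted 0.0013), with 13 of 19. Without the 2 animals farthest from the median of the first gene r was 0.70, 0.72 and 0.73 in that order. On slide 2 (8 animals) r was 0.55, 0.67 and 0.66, and on slide 3 (6 animals) 0.93, 0.72 and 0.58. Slide 1 held fewer animals, and its r is not given.

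Nfil3 varied against Dbp, with r = -0.61 (permutation p = 0.00565, adjusted 0.00848) and rho = -0.59 (permutation p = 0.00916, adjusted 0.0137) over 19 animals, and 5 of 19 on the same side. On slides 2 and 3 r was -0.59 and -0.83, and r on slide 1 is not given. The residuals of Dbp on slide 1 were -1.24, 1.14, -0.15, 0.19 and 0.04. Those of Nfil3 in the same animals were 0.31, 0.11, 0.18, -0.21 and -0.39. This relation rested in part on 2 animals, since without 6.25 mg/kg replicate 1 and control replicate 4 r was -0.51 and missed the threshold (permutation, adjusted p = 0.0576). It also missed when dose group alone was taken out, without slide (r = -0.30, permutation, adjusted p = 0.316). Against Tef and Hlf, Nfil3 had r = -0.31 (permutation p = 0.195, adjusted 0.234) and -0.20 (permutation p = 0.417, adjusted 0.417). Their rho was -0.43 (adjusted 0.0822) and -0.29 (adjusted 0.219), so no relation was shown. On slide 2 their r was -0.08 and 0.04, on slide 3 -0.91 and -0.80, and without the 2 farthest animals -0.36 and -0.48. With 6.25 mg/kg replicate 5 left out, Tef and Nfil3 had r = -0.59 (permutation, adjusted p = 0.0142).

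**Figure D4:**
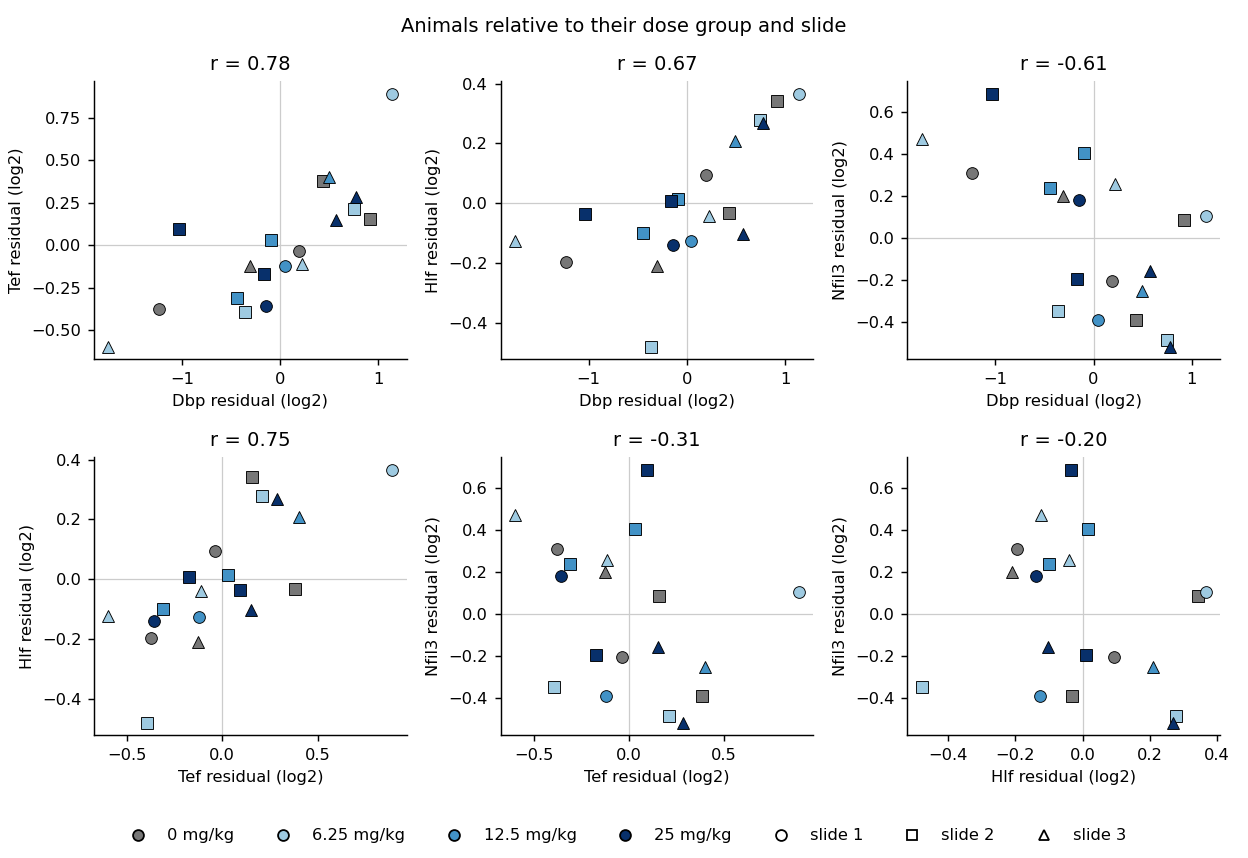
Each animal's log2 residual after dose group and slide were taken out, for the 6 pairs of genes, with colour for dose, shape for slide and Pearson's r above each panel (19 animals). The pairs of Dbp, Tef and Hlf rise from lower left to upper right (r = 0.67 to 0.78), Dbp against Nfil3 falls (r = -0.61), and 6.25 mg/kg replicate 5 lies at the upper right of the activator pairs.

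The share of liver spots above background, a measure of how bright an array was, had r = 0.21 with the residuals of Dbp, 0.09 with Tef, 0.39 with Hlf and 0.04 with Nfil3. None of these 4 passed by permutation (adjusted p = 0.386 to 0.86), though rho for Hlf was 0.54 (permutation p = 0.0189, adjusted 0.0756). Without the 2 animals farthest from the median of this measure, r was 0.42 for Dbp, 0.21 for Tef, 0.43 for Hlf and -0.39 for Nfil3. Those values were not tested.

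The size of these correlations can be read against all 13545 named genes with a value on every array, though genes share animals, arrays and reference and are not replicates. For Dbp, Tef stood at place 3 from the highest, and 0.0886% of genes had an r as far from 0. For the pair of Tef and Hlf the share was 0.539% seen from Tef, and for Dbp and Hlf 0.746% seen from Dbp. It was 1.61% for Nfil3 seen from Dbp, but 28.2% for Nfil3 seen from Tef and 52.6% seen from Hlf. Each pair has a second share, seen from its other gene. For Dbp it was 0.295% seen from Tef (place 18 from the highest), 1.17% seen from Hlf and 3.25% seen from Nfil3. For Tef it was 0.236% seen from Hlf and 31.6% seen from Nfil3, and for Hlf 53.1% seen from Nfil3. The median size of r over all genes was 0.17 for Dbp, 0.20 for Tef, 0.21 for Hlf and 0.21 for Nfil3.

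The genes whose residuals were most like those of Dbp over the 19 animals were Ppargc1b, a coactivator of mitochondrial and lipid genes (r = 0.85), Slc5a6, a vitamin transporter (0.78), Tef (0.78), the clock gene Per3 (0.78) and Nfkbiz, a nuclear regulator of NF-kappaB (0.76). Most opposed were Net1, an exchange factor for RhoA (r = -0.87), Gfer, a sulfhydryl oxidase of mitochondria (-0.85), Arl4a, a small GTPase (-0.83), Arntl, which encodes BMAL1 (-0.81), and Dnah6, a dynein heavy chain (-0.80).

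For Tef the closest were the deubiquitinase Usp2 (r = 0.92), Wee1, a kinase that holds back mitosis (0.88), and Narf (0.87). Most opposed to Tef were 3 tubulin sequences, Tubb2a (-0.94), its pseudogene Tubb2a-ps2 (-0.94) and Tubb4b (-0.91), of which the first 2 are near-identical and may not be read apart by their probes. For Hlf they were Selenoh, a selenoprotein (r = 0.89), Klf1 (0.86) and Vsig2 (0.85), against Rasl12 (-0.90) and Actn3 (-0.85), an actinin best known from muscle. For Nfil3 they were the cargo receptor Tmed10 (r = 0.93), Pknox1 (0.86) and Mtfr1 (0.85), against Lpin1, a phosphatidate phosphatase (-0.83), Cyth2 (-0.81) and Klhdc7b (-0.80). None of the genes given here appeared in more than 1 of these 4 sets, which hold only the extremes. Arntl and Per3, given for Dbp, had r = -0.90 and 0.83 with Tef. Some of these genes were dim in liver: Ppargc1b was well above background on 7 of 19 arrays and no control, Actn3 on 6, Rasl12 on 12, Per3 on 11 and Wee1 on 15.

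Upstream of the 4 genes stands the clock loop, of which 13 of 15 listed genes were kept (Cry1 and Npas2 were not). At 25 mg/kg 10 were above control and 3 below, with a median log2 difference of 0.80 where all 13812 genes had -0.01. The 10 and the median include Per3 and Ciart, both kept mainly through treated arrays, and a median without them was not taken. Ciart (1.25 ± 0.32, SE) was well above background on 1 of 5 control arrays and 4 of 5 at 25 mg/kg. Bhlhe41, also among the 10 (0.08 ± 0.20, SE), was well above background on only 6 of 19 arrays. Of the 13, only Nr1d2, which encodes the repressor REV-ERB beta, passed in limma (1.35 ± 0.21, SE, adjusted p = 0.0129). The next by p were Cry2 (0.80 ± 0.18, adjusted p = 0.101 in limma), Per2 (1.55 ± 0.35, 0.107) and Bhlhe40 (1.34 ± 0.31, 0.123), all inhibitors of BMAL1 and CLOCK. Not all genes that BMAL1 and CLOCK switch on differed so. Nr1d1, counted among the 10, had 0.07 ± 0.44 (SE), and 0.08 with slide as a block. With slide as a block, where 0.809% of all probes passed, 4 rose (Nr1d2, Cry2, Per3 and Bhlhe40) and 2 fell (Arntl and Clock). Per3 was well above background on 0 of 5 control arrays and 5 of 5 at 25 mg/kg, where it was at least 1.83-fold higher (liver channel, against the dimmest signal well above background on each control array or the probe's own, whichever was higher). The list's median was 0.60 at 12.5 mg/kg and 0.41 at 6.25 mg/kg, with 0 passing in either fit. Without the block 5 were higher and 3 lower at an unadjusted p under 0.05 in limma at 12.5 mg/kg (4.21% of all probes reached it), and 5 higher and 1 lower at 6.25 mg/kg (5.57%).

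The clock loop also varied with the 4 genes among animals of the same dose. Of 12 members with a value on every array, 5 had a residual r of at least 0.5 in size with Dbp, 8 with Tef, 8 with Hlf and 4 with Nfil3. Over all 13545 genes the shares past that size were 5.15%, 7.86%, 8.93% and 9.15%. Arntl had r = -0.81 with Dbp, -0.90 with Tef, -0.64 with Hlf and 0.57 with Nfil3. Nr1d2 had 0.64, 0.68, 0.54 and -0.60, and Per2 0.53, 0.62, 0.73 and -0.03. The signs for Arntl and Nr1d2 were thus opposite between the activators and the repressor.

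Downstream, genes that PAR bZIP factors are reported to drive numbered 20, of which 18 were kept, and 6 of those also sit in the clock loop. Over the 18, 14 were above control and 4 below at 25 mg/kg (median 0.51), and 1 passed in limma, Nr1d2 again. The 14 include Per3 and Nr1d1, described above. Por, the reductase that supplies electrons to microsomal cytochromes P450, had 1.81 ± 0.40 (SE, adjusted p = 0.101 in limma, and 1.89, adjusted p = 0.0346, with slide as a block), followed by Per2 and Per1 (1.32 ± 0.32, 0.163). The 12 outside the clock had a median of 0.37 at 25 mg/kg, with 9 above and 3 below. At 12.5 mg/kg it was -0.29, with 4 above and 8 below, and at 6.25 mg/kg 0, with 6 on each side. Of all genes 48.3%, 46.1% and 50.8% were above control at 25, 12.5 and 6.25 mg/kg. With slide as a block the medians of the 12 were 0.40 (9 above), -0.13 (5 above) and 0.15 (9 above) in that order, where 48.7%, 48.4% and 51.4% of all genes were above. Among these 12, 0 passed in limma without the block at any dose, and Por alone with it at 25 mg/kg. At an unadjusted p under 0.05 without the block, 3 were higher and 1 lower at 25 mg/kg (7.37% of all probes reached it), 1 and 2 at 12.5 mg/kg (4.21%), and 3 and 1 at 6.25 mg/kg (5.57%).

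Among animals of the same dose, 1 of the 12 genes outside the clock had a residual r of at least 0.5 in size with Dbp, 4 with Tef, 4 with Hlf and 0 with Nfil3. Of all genes 5.15%, 7.86%, 8.93% and 9.15% had one that large. The 4 with Tef were of both signs, 0.79 for Por and 0.64 for Acot3 against -0.59 for Cyp2b10 and -0.50 for Fgf21. Acot3, Cyp2b10 and Fgf21 are named here after their values were seen. In liver Fgf21 was well above background on only 8 of 19 arrays and Acot3 on 13. With Dbp, Por had 0.37 and Cyp2b10, a cytochrome P450 induced by drugs, -0.56. The C/EBP factors, zipper proteins related to this family, were also listed, and 5 of 6 were kept. At 25 mg/kg their median was -0.01, and 0 passed in limma (1 at an unadjusted p under 0.05). Ddit3, a stress-induced member, had -0.96 ± 0.20 (SE, adjusted p = 0.0943 in limma) and fell with the block, Cebpb had 0.42, Cebpd -0.08 and Cebpg -0.01.

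**Figure D5:**
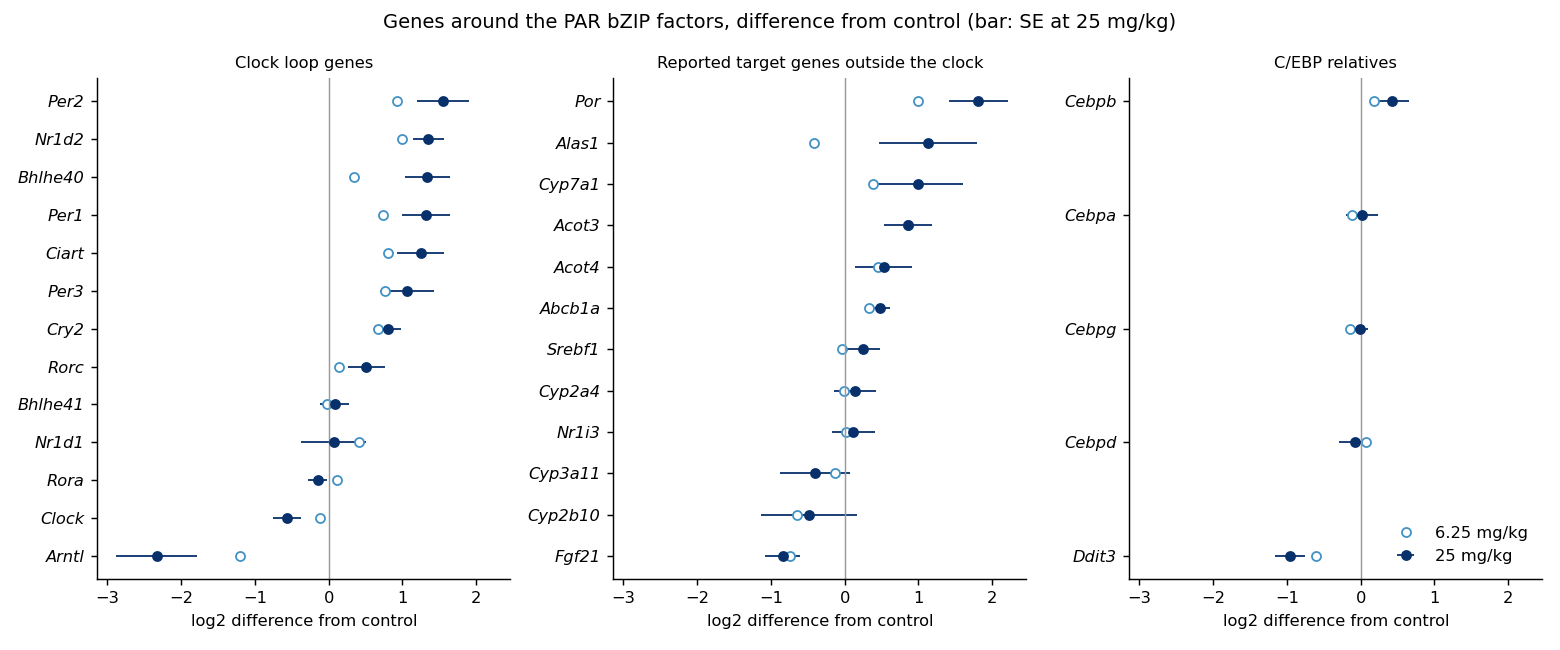
Log2 difference from control at 25 mg/kg (filled, bar for the SE) and 6.25 mg/kg (open) for the kept clock loop genes, the reported target genes outside the clock and the C/EBP relatives. In the clock loop 10 of 13 lie right of 0 at 25 mg/kg with Arntl far to the left, and of the targets outside the clock 9 of 12 lie right of 0, with Por farthest right. Of the 10, Nr1d1 (0.07) and Bhlhe41 (0.08) lie close to 0.

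Markers of other liver cells were read beside these results. Macrophage markers (8 of 9 kept, not Cd68) had a mean log2 ratio of 2.45 to 4.04 in controls and 2.02 to 3.22 at 25 mg/kg. Lymphocyte markers (7 of 11 kept, not Cd8a, Cd79a, Klrb1c or Ncr1) had -0.17 to 0.07 and -0.33 to -0.15, and 3 of the 7 were lower at an unadjusted p under 0.05 in limma, which 7.37% of all probes reached at 25 mg/kg. Stellate markers (7 of 7) had -1.49 to -1.12 and -1.33 to -0.92, endothelial markers (6 of 6) 2.67 to 3.41 and 2.38 to 3.40, and cholangiocyte markers (4 of 5, not Epcam) -2.50 to -2.08 and -2.81 to -2.16. Of the macrophage, stellate, endothelial and cholangiocyte markers, C1qb and Sox9 were lower and Lrat higher at an unadjusted p under 0.05 in limma. Hepatocyte markers were below control for 8 of 8 genes without the block (median -0.19, 0 at an unadjusted p under 0.05 in limma), and 4 lay above and 4 below with it (median -0.01). Of the kept markers 0 passed at 25 mg/kg in limma with or without the block. Their part in the levels of the 4 genes was not tested.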

How the data were processed

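Liver RNA of 19 mice was read on 2-colour Agilent arrays, 1 per animal. The deposited scanner files give median spot and background intensity, not log-transformed. Per the file headers, the scanner software was Feature Extraction 10.7.3.1. The authors' deposited table holds log2 ratios, made by steps not given in the sources used here, with column medians of -0.0355 to -0.0217. Its columns correlated at 0.993 to 0.996 with loess-normalised ratios without background subtraction. It was used as an alternative.

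Median signals were corrected with normexp (offset 50) and loess-normalised within each array in limma 3.58.1 (R 4.3.3). Outlier spots were set to missing (0.132% of values). A probe was kept when well above background in liver on at least 4 arrays. RefSeq accessions named 47.4% of probes. Group means were fitted to all 19 arrays with lmFit and eBayes, and Benjamini-Hochberg adjustment covered all 29415 probes kept. The number of arrays limits precision. Scripts were tested on simulated data.

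Replicate numbers follow accession order and only name animals. Genes named are the members, the 5 highest and 5 lowest residual correlations for Dbp (3 and 3 for the others) and the 4 members of smallest p of each of 3 lists (clock loop, reported targets, C/EBP relatives). Of these, 1 gene is not reported here. Others (Per3, Ciart, Nr1d1, Bhlhe41, Arntl, Clock and Cyp2b10 among the lists) were named after their values were seen. The members and lists were chosen with earlier results of these data known. Alternatives were slide as a block or within slides, other background correction and normalisation, the liver channel alone, the deposited table, no filter, the 2 groups alone, a trended robust prior, each array left out and, for residuals, the mean of a gene's probes.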

Additional observations from a re-analysis of the deposited data

How the results depend on the processing

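Against control the 4 genes kept their sign under the other settings listed above and on each slide. At 25 mg/kg, over settings other than left-out arrays and single slides, the log2 difference was 3.60 to 3.84 for Dbp, 1.69 to 1.90 for Tef, 0.57 to 0.62 for Hlf and -1.48 to -1.28 for Nfil3. At 12.5 mg/kg 2 member probes passed, in place of 0, with slide as a block, in the liver channel alone and with only the 2 groups compared. Leaving out each array gave 0 to 4 passing at 25 mg/kg, 0 to 2 at 12.5 and 0 to 0 at 6.25, and with the block (added after seeing the data) 3 to 5, 0 to 3 and 0 to 3. Without the filter on dim probes Nfil3 missed at 25 mg/kg (adjusted p = 0.0642 in limma).

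Between treated doses no member passed under any setting. Signs turned within slides. From 6.25 to 12.5 mg/kg slide 1 gave -0.28 for Dbp, -0.74 for its second probe and -0.88 for Tef, slide 3 gave 0.06 for Hlf and slide 2 gave 0.25 for Nfil3. From 6.25 to 25 mg/kg slide 1 gave -0.29, -0.72 and -0.74 for the same 3 probes and -0.42 for Hlf, and slide 2 gave 0.06 for Nfil3. From 12.5 to 25 mg/kg Dbp was -0.01 on slide 1 and -0.14 on slide 2, and Nfil3 0.45 on slide 1. Left-out arrays turned Tef from 6.25 to 12.5 mg/kg (-0.02 to 0.62, and -0.05 to 0.44 with the block), Hlf from 6.25 to 25 mg/kg (-0.10 to 0.26, -0.05 to 0.21), and Dbp (-0.07 to 0.54, -0.01 to 0.49) and Nfil3 (-0.26 to 0.01, -0.32 to 0.02) from 12.5 to 25 mg/kg. The cause was not tested.

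Residual correlations without slide in the model were -0.30 for Dbp and Nfil3, which then missed, and turned to 0.12 for Tef and Nfil3 and 0.16 for Hlf and Nfil3. Each array left out gave 0.71 to 0.88 for Dbp and Tef, 0.58 to 0.76 for Dbp and Hlf, 0.65 to 0.80 for Tef and Hlf, -0.73 to -0.52 for Dbp and Nfil3, -0.59 to -0.17 for Tef and Nfil3 and -0.48 to -0.07 for Hlf and Nfil3. Without the 2 farthest animals Dbp and Nfil3 had -0.51. A permutation over the 13 residual dimensions, added after seeing the data, gave adjusted p-values of 0.00318, 0.00362 and 0.00362 for the activator pairs and 0.0211 for Dbp and Nfil3.

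Limits: the groups hold 4 or 5 animals on 3 slides, a slide holds 1 or 2 animals of a dose, the reference sat in the same dye throughout, and Hlf was dim. No paired analysis was possible because replicate numbers follow accession order.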
